A study of Homo sapiens with 9 samples.

Results

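Factors of the GATA, TAL1 and LMO2 complex were followed in RNA-seq of U937, a human monocytic cell line. The set holds 10 of the 60623 genes in the files, chosen by name for their known place in or beside this complex: the GATA factors GATA1 and GATA2, the bHLH factors TAL1 and LYL1, their E-protein partner TCF3, the bridging proteins LMO2 and LDB1, the repressors GFI1 and GFI1B, and MYB. The 3 stable lines were a control line with the empty vector, labelled as wild type, and 1 clone each for AML1-ETO (clone #4) and ETO2-GLIS2 (clone #14), whose HA-tagged fusion protein is switched on by doxycycline. All 3 lines, the control included, were treated with 5 µg/ml doxycycline for 0, 12 and 48 h, and each of the 9 conditions had 1 library. No replicate check exists, no p-value was computed, and a difference between lines cannot be told apart from a difference between clones.

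In blood progenitors and in erythroid and megakaryocytic cells these proteins form assemblies on DNA. A GATA factor binds its own site, TAL1 or LYL1 pairs with an E protein such as TCF3 or TCF12 on an E-box, and LMO2, which does not bind DNA itself, links them to LDB1. GFI1 and GFI1B are zinc-finger repressors that recruit the LSD1 and CoREST corepressor, and MYB is an activator of progenitor genes. AML1-ETO joins the Runt domain of RUNX1, which binds DNA, to the corepressor ETO (RUNX1T1). ETO2-GLIS2 joins part of ETO2 (CBFA2T3), a corepressor found with the TAL1 complex, to the zinc fingers of GLIS2. In these libraries LYL1 fell 2.58-fold and MYB 2.13-fold after 48 h of AML1-ETO, where 9.88% of all tested genes fell. With ETO2-GLIS2 none of the 6 expressed members passed 2-fold, where 6.19% of all tested genes rose and 1.33% fell. With the control line subtracted, MYB was no longer past 2-fold in the first line. LYL1 was then past it in both, at -1.60 and, near the threshold, -1.06 on the log2 scale. GATA1, TAL1 and GFI1B were at or near 0 throughout.

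The libraries held 15136399 to 18443640 reads on genes, as recovered from the FPKM values, which are fragments per length of exon and per size of the library. Whole reads came out for 11785 (99.7%) of the 11820 genes averaging 1 FPKM or more, within 0.03 reads. RUNX1T1 had 0.512, 22.2 and 28.7 FPKM at 0, 12 and 48 h in AML1-ETO cells and at most 0.0240 FPKM in the other lines. It was thus above 0 in AML1-ETO cells before induction. GLIS2 had 2.39, 6.79 and 8.85 FPKM in ETO2-GLIS2 cells, 4.76, 3.64 and 3.72 FPKM in the control line and 5.60, 2.93 and 2.47 FPKM in AML1-ETO cells. GLIS2 was read in every line, highest in induced ETO2-GLIS2 cells, and exons of another gene cover 23.5% of its exons on the other strand. Genes of the mitochondrial genome took 23.5%, 16.3% and 15.5% of the summed FPKM in the control line, 20.9%, 13.1% and 8.82% in AML1-ETO and 22.8%, 16.6% and 12.1% in ETO2-GLIS2 cells. Their share was thus lower at 48 h in every line, and over all genes above this mean the median log2 fold change was 0.16, 0.22 and 0.16 in the same order of lines. The part of this shift in the results below was not tested beyond the values rescaled by the median ratio between libraries, which brought these medians to 0.01, 0.05 and -0.01.

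Promoter letters were read for the members because AML1-ETO carries a Runt domain. The RefSeq promoter table (GRCh38.p14) held 14 windows of 250 bases before a start for 9 of the 10 members, and the core letters TGTGGT stood on either strand in 2 of them, against 11.0% of all 35116 windows. These were the second start of GFI1, with 1 match 47 to 42 bases upstream, and the second start of TAL1, with 3 matches. The GATA letters AGATAA (9.17% of all windows) stood only at the first start of TAL1, the E-box CAGCTG (14.0%) only at the second start of GATA2, the E-box CAGATG (12.2%) only at both starts of GFI1B, and the ETS letters CCGGAAG (8.52%) only at the third start of GFI1. Windows of LYL1, MYB, TCF3, LDB1 and GATA1 held none of these letters, which says only that these runs are not in these windows. A match is a run of letters and not a measured site. LYL1 (chr19:13102859-13103108, minus strand) and MYB (chr6:135181058-135181307, plus strand) are shown because they are the members called in AML1-ETO cells, and the second start of GFI1 (chr1:92486100-92486349, minus strand) because it has a Runt core and the gene is expressed. The letters run 5′ to 3′ on the strand of the gene, and capitals mark TGTGGT.
LYL1: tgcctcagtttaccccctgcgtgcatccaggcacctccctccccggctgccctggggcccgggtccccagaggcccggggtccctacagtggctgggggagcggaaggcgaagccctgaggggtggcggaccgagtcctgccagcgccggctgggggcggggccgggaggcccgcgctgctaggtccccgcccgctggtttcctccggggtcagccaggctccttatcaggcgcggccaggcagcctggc
MYB: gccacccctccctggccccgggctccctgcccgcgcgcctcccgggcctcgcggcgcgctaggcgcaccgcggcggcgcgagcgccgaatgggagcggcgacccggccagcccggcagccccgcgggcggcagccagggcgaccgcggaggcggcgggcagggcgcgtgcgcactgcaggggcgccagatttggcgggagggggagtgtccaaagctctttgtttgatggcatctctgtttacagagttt
GFI1, second start: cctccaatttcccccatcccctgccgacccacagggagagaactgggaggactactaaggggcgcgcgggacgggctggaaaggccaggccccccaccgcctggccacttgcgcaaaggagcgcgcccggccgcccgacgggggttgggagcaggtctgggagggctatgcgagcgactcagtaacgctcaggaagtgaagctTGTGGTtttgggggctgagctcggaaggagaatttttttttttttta

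Of the 10 factors, 6 averaged 1 FPKM or more across the 9 libraries, namely LYL1, TCF3, LMO2, LDB1, GFI1 and MYB, while GATA1, GATA2, TAL1 and GFI1B lay below it. Among all genes in the files, 19.5% reached this mean. The U937 libraries therefore held the bridging proteins, 1 bHLH factor of the TAL1 and LYL1 pair, its E-protein partner, GFI1 and MYB, with few or no reads of GATA1, TAL1 and GFI1B. Levels are given as FPKM, which is per exon length. They compare across genes only as far as the exon lengths used, which are not given, match the RNA made in these cells.

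**Figure D1:**
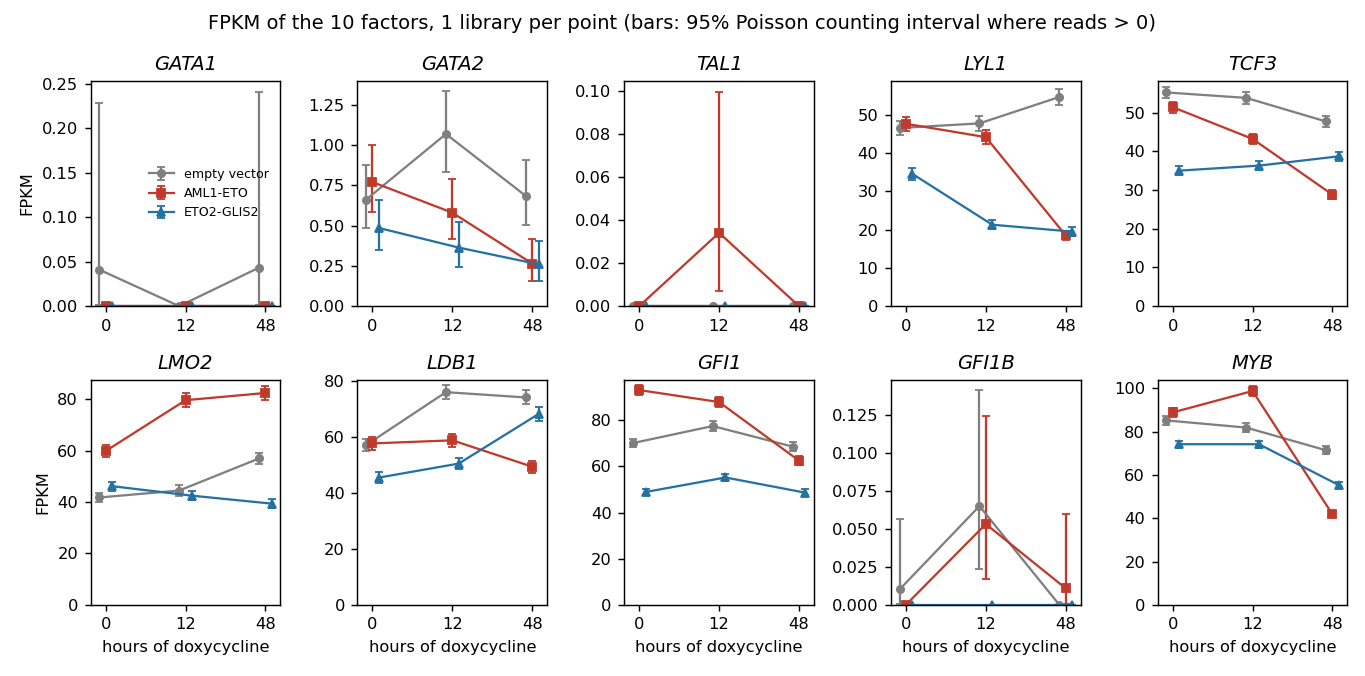
FPKM (y axis, a scale of its own in each panel, from 0) of the 10 factors at 0, 12 and 48 h of doxycycline (x axis, not to scale in time) in the empty vector control (grey), AML1-ETO (red) and ETO2-GLIS2 (blue) lines, 1 library per point, with 95% Poisson intervals of the reads where there were any. LYL1 reached 18.5 and 19.5 FPKM in the 2 fusion lines at 48 h against 54.7 FPKM in the control line, and MYB was lowest, at 41.8 FPKM, in AML1-ETO cells at 48 h.

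GATA1 (ENSG00000102145; chrX:48786590-48794311, GRCh38.p14 as for all positions here), the master factor of red cells and platelets, had 0.0410, 0 and 0.0433 FPKM in the control line and 0 in all 6 libraries of the fusion lines. The 2 values above 0 are 1 read each, and 3 reads would have given between 0.112 and 0.136 FPKM, so GATA1 was below the detection floor in every library. TAL1 (ENSG00000162367; chr1:47216290-47232335), the founding bHLH factor of the complex, was 0 in 8 libraries and 0.0341 FPKM, about 3 reads, in AML1-ETO cells at 12 h. Its floor lay between 0.0294 and 0.0358 FPKM. Exons of a gene on the other strand cover 14.8% of the TAL1 exons, and reads of the 2 strands could not be told apart.

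GFI1B (ENSG00000165702; chr9:132945531-132993434), the GFI1 paralogue of erythroid and megakaryocytic cells, had 0.0101, 0.0649 and 0 FPKM in the control line, 0, 0.0531 and 0.0108 FPKM in AML1-ETO cells and 0 in all 3 libraries of ETO2-GLIS2 cells. These values come from 13 reads in all. No change of GATA1, TAL1 or GFI1B from 0 h of the same line was detectable at this depth. For GFI1B, counting intervals lay below 0 from 12 to 48 h in the control line (upper bound -0.26) and for ETO2-GLIS2 cells against the control line at 12 h (upper bound -0.48), both resting on the 6 reads of 1 library.

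GATA2 (ENSG00000179348; chr3:128479422-128493201), the GATA factor of stem and progenitor cells, was low but had reads in every library. Its levels at 0, 12 and 48 h were 0.662, 1.07 and 0.685 FPKM in the control line, 0.771, 0.581 and 0.265 FPKM in AML1-ETO, and 0.486, 0.364 and 0.260 FPKM in ETO2-GLIS2 cells. The 2 induced libraries at 48 h were the lowest of the 9, from 18 and 19 reads, and the control line at 12 h was the highest, from 72 reads. The log2 fold change from 0 to 48 h was -1.50 in AML1-ETO cells (95% counting interval -2.39 to -0.75), -0.88 in ETO2-GLIS2 cells (-1.77 to -0.08) and 0.05 in the control line (-0.56 to 0.66). All intervals here are exact intervals of a ratio of reads, and they cover counting error only, since sequenced reads may be copies of one molecule where no molecular identifier was used, and cultures were not repeated. GATA2 stayed under the mean FPKM of 1 that the call rule asks for, so it was not called in either direction.

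A gene was called when its FPKM plus 0.01 differed more than 2-fold from 0 h of the same line, both libraries together averaged at least 1 FPKM, and the control line had not passed 2-fold in the same direction. At 48 h in AML1-ETO cells, 2 of the 6 expressed members, LYL1 and MYB, fell, where 9.88% of all tested genes did, and 0 of the 6 rose, against 12.6% of all genes. In ETO2-GLIS2 cells 0 of the 6 fell, against a background of 1.33%, and 0 rose, against 6.19%. In the control line, with the same fold and filter, 0 of the 6 rose (background 8.00%) and 0 fell (2.99%). At 12 h none of the 6 was called in the control line (7.53% of all genes in either direction), in AML1-ETO cells (6.27%) or in ETO2-GLIS2 cells (2.64%). Only 6 genes stand behind each of these counts. The median log2 fold change of the 6 at 48 h was 0.10 in the control line, -0.71 in AML1-ETO and -0.12 in ETO2-GLIS2 cells, beside 0.16, 0.22 and 0.16 over all tested genes.

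**Figure D2:**
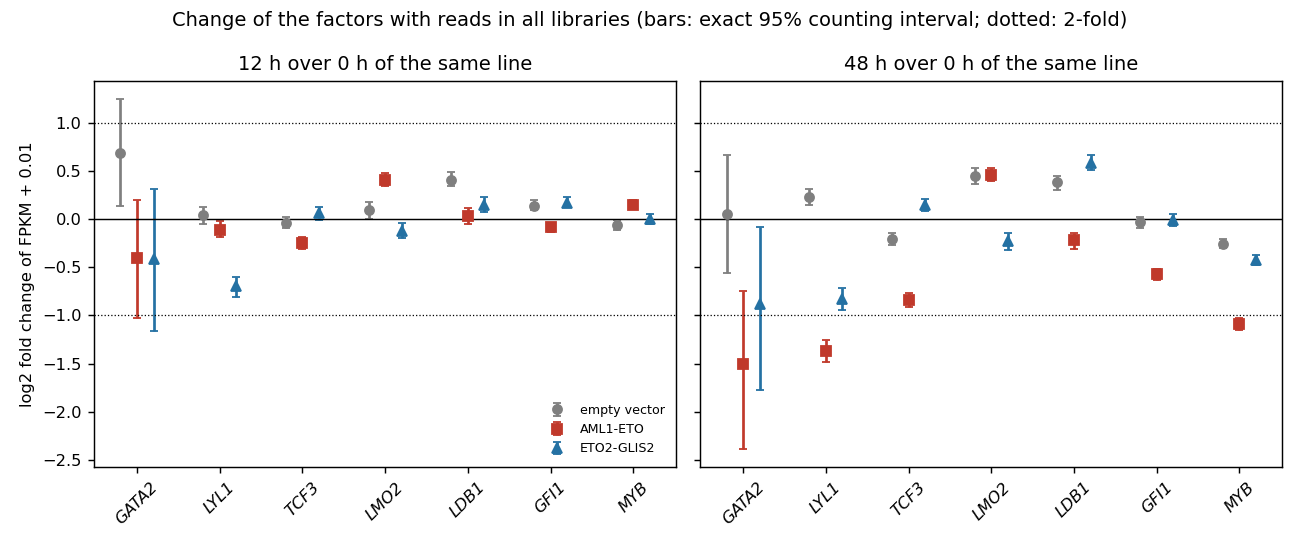
Log2 fold change of FPKM + 0.01 (y axis) of the 7 factors with reads in every library (x axis), at 12 h and 48 h over 0 h of the same line, with exact 95% counting intervals and dotted lines at 2-fold. At 48 h LYL1 lay at -1.37 in AML1-ETO and -0.83 in ETO2-GLIS2 cells but at 0.23 in the control line, while LMO2 lay at 0.46 and 0.45 in the AML1-ETO and empty vector lines.

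LYL1 (ENSG00000104903; chr19:13099033-13102858), the bHLH paralogue that can take the place of TAL1, had the widest range among the expressed members, 2.96-fold from the lowest to the highest library. It had 46.6, 47.8 and 54.7 FPKM at 0, 12 and 48 h in the control line, 47.7, 44.2 and 18.5 FPKM in AML1-ETO, and 34.6, 21.3 and 19.5 FPKM in ETO2-GLIS2 cells. The induced libraries at 48 h were the lowest of the 9, followed by ETO2-GLIS2 cells at 12 h, so the fusion lines reached these levels at different times. In AML1-ETO cells the log2 fold change was -0.11 (-0.19 to -0.02) at 12 h and -1.37 (-1.48 to -1.26) at 48 h, a 2.58-fold fall. In ETO2-GLIS2 cells it was already -0.70 (-0.81 to -0.60) at 12 h and -0.83 (-0.94 to -0.72) at 48 h, which is 1.78-fold and under the 2-fold needed for a call. The step from 12 to 48 h was -1.26 (-1.37 to -1.15) in the first line and -0.13 in the second. The control line lay at 0.23 at 48 h, and with this subtracted the log2 differences were -1.60 and -1.06. LYL1 therefore passes 2-fold in both fusion lines when the control line is subtracted or taken as the reference at the same time. The subtracted values have no interval of their own, and -1.06 lies near the 2-fold line. The ETO2-GLIS2 clone was already lower before induction, at -0.43 (-0.51 to -0.34) on the log2 scale against the control line at 0 h. Its value against the control line at 48 h, -1.49 (-1.60 to -1.38), includes that difference.

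TCF3 (ENSG00000071564; chr19:1609292-1652615), which encodes the E proteins E12 and E47, had 55.2, 53.8 and 47.7 FPKM in the control line, 51.4, 43.2 and 28.8 FPKM in AML1-ETO, and 35.0, 36.3 and 38.7 FPKM in ETO2-GLIS2 cells. The lowest library was AML1-ETO cells at 48 h. The log2 fold change at 48 h there was -0.84 (-0.91 to -0.77), short of a call as deposited and past 2-fold, at -1.01, after rescaling. In ETO2-GLIS2 cells it was 0.15 as deposited and -0.02 after rescaling, so its sign depends on the scaling, and in the control line it was -0.21. The ETO2-GLIS2 clone already stood apart before induction, with a log2 difference from the control line at 0 h of -0.66 (-0.72 to -0.60).

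LMO2 (ENSG00000135363; chr11:33858576-33892076), the LIM-only bridge of the complex, had 41.8, 44.5 and 57.0 FPKM in the control line, 59.9, 79.7 and 82.5 FPKM in AML1-ETO, and 46.2, 42.5 and 39.4 FPKM in ETO2-GLIS2 cells. All 3 AML1-ETO libraries were above all 6 others. At 48 h the log2 fold change was 0.46 (0.39 to 0.53) in AML1-ETO cells and 0.45 (0.36 to 0.53) in the control line, a difference of 0.01, and it was -0.23 (-0.32 to -0.14) in ETO2-GLIS2 cells. At 12 h AML1-ETO cells lay at 0.41 (0.34 to 0.48) and the control line at 0.09 (0.25 and -0.06 after rescaling). No library pair of a line passed 2-fold.

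LDB1 (ENSG00000198728; chr10:102102088-102121442), the dimerising partner of LMO2, had the narrowest range of the 6, 1.67-fold. Its levels were 57.0, 75.9 and 74.0 FPKM in the control line, 57.6, 58.7 and 49.3 FPKM in AML1-ETO, and 45.4, 50.4 and 68.1 FPKM in ETO2-GLIS2 cells. At 48 h it stood, as a log2 fold change, at 0.38 in the control line, -0.22 (-0.31 to -0.14) in AML1-ETO and 0.58 (0.51 to 0.66) in ETO2-GLIS2 cells. With the control line subtracted these became -0.60 and 0.21, and at 48 h the LDB1 level of ETO2-GLIS2 cells lay within the range of the control libraries, while at 12 h it lay below it.

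GFI1 (ENSG00000162676; chr1:92473043-92486925), a repressor of myeloid and stem cells, had 70.1, 77.5 and 68.6 FPKM in the control line, 93.1, 87.9 and 62.5 FPKM in AML1-ETO, and 48.9, 55.2 and 48.6 FPKM in ETO2-GLIS2 cells. The AML1-ETO clone was highest of the 3 lines at 0 h and the ETO2-GLIS2 clone lowest, with log2 differences from the control line of 0.41 (0.36 to 0.46) and -0.52 (-0.58 to -0.46). As a log2 fold change at 48 h it stood at -0.57 (-0.63 to -0.52) in AML1-ETO cells, -0.01 (-0.07 to 0.05) in ETO2-GLIS2 cells and -0.03 in the control line. At 48 h AML1-ETO cells stood at 62.5 FPKM, near the 68.6 FPKM of the control line.

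MYB (ENSG00000118513; chr6:135181308-135219172) had the highest median FPKM of the members, 74.2 FPKM over the 9 libraries. It had 85.2, 81.9 and 71.4 FPKM in the control line, 88.9, 98.8 and 41.8 FPKM in AML1-ETO, and 74.2, 74.2 and 55.3 FPKM in ETO2-GLIS2 cells. In AML1-ETO cells the log2 fold change was 0.15 at 12 h (-0.01 after rescaling) and -1.09 (-1.15 to -1.03) at 48 h, a 2.13-fold fall that came after 12 h. The other lines lay at -0.43 (-0.48 to -0.37) for ETO2-GLIS2 and -0.26 for the empty vector. With the control line subtracted, the AML1-ETO value was -0.83, and MYB was then not called. The fall of MYB is thus past 2-fold against 0 h of its own line, and not against the control line.

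Before induction none of the 6 expressed members differed more than 2-fold between a clone and the control line, where 4.90% of all tested genes did in the AML1-ETO clone and 6.41% in the ETO2-GLIS2 clone. The 5 libraries without an induced fusion protein, which are the control line at all times and both clones at 0 h, give a range for each gene. At 48 h in AML1-ETO cells LYL1, MYB and TCF3 lay below that range (3 of 6, against 27.2% of all tested genes) and LMO2 above it (1 of 6, against 38.7%). At 48 h in ETO2-GLIS2 cells LYL1, LMO2, GFI1 and MYB lay below it (4 of 6, against 15.9%) and 0 of 6 above it (28.9%). The distance was small for GFI1, at 48.6 FPKM against a lowest value of 48.9 FPKM. It was small for LMO2 too in ETO2-GLIS2 cells, at 39.4 FPKM against a lowest value of 41.8 FPKM. For both genes the 95% Poisson intervals of these libraries overlapped, so counting error alone could place them inside the range. LYL1 stood at 18.5 and 19.5 FPKM in the AML1-ETO and ETO2-GLIS2 lines against a lowest value of 34.6 FPKM. MYB stood at 41.8 and 55.3 FPKM in the same lines against 71.4 FPKM. The range comparison was added after the values were seen.

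The balance of partners within a library does not depend on the scaling between libraries. The size of each ratio rests on the exon lengths behind the FPKM, while its change between libraries does not. The FPKM ratio of LYL1 to LMO2 was 1.11, 1.07 and 0.961 at 0, 12 and 48 h in the control line. In AML1-ETO cells it was 0.796 (0.754 to 0.840), 0.555 (0.526 to 0.586) and 0.224 (0.208 to 0.241), and in ETO2-GLIS2 cells 0.750 (0.707 to 0.796), 0.501 (0.466 to 0.537) and 0.495 (0.458 to 0.535). This ratio was lower at 12 h than at 0 h in both fusion lines, and from 12 to 48 h it was lower again in AML1-ETO cells alone of these 2 beyond counting error. TCF3 over TCF12, its E-protein paralogue, was 2.48, 2.20 and 1.77 in the control line, 2.57, 2.24 and 1.20 in AML1-ETO, and 1.62 and 1.52 in ETO2-GLIS2 cells at 0 and 48 h. The empty vector and AML1-ETO lines were close at 0 and 12 h and stood at 1.77 (1.69 to 1.84) and 1.20 (1.14 to 1.26) at 48 h. LDB1 over LMO2 was 1.36, 1.71 and 1.30 in the control line, 0.961, 0.736 and 0.597 in AML1-ETO, and 0.984, 1.18 and 1.73 in ETO2-GLIS2 cells, so the fusion lines started alike and ended on either side of the control line. GFI1 over MYB was 0.823, 0.946 and 0.962 in the control line, 1.05, 0.890 and between 1.43 and 1.56 in AML1-ETO, and 0.659, 0.744 and 0.880 in ETO2-GLIS2 cells. The pairs were chosen after the values were seen.

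**Figure D3:**
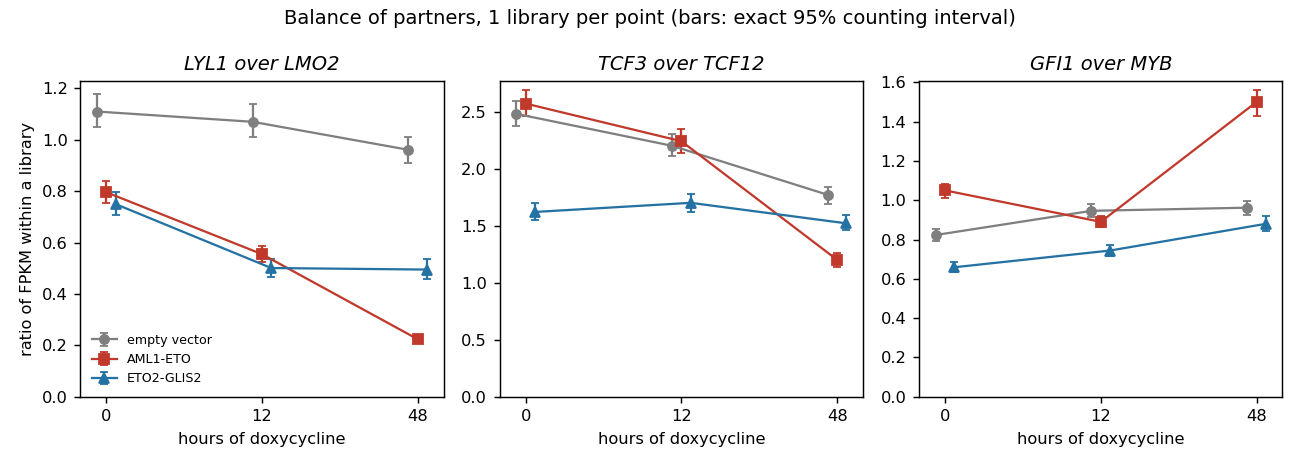
Ratio of FPKM within a library (y axis, from 0) for LYL1 over LMO2, TCF3 over TCF12 and GFI1 over MYB at 0, 12 and 48 h of doxycycline (x axis, not to scale in time), 1 library per point, with exact 95% counting intervals. LYL1 over LMO2 ended at 0.224 in AML1-ETO cells (red), 0.495 in ETO2-GLIS2 cells (blue) and 0.961 in the control line (grey).

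Among 8 E-protein and bridging partners, 6 were tested at 48 h in AML1-ETO cells, where 1 rose and 1 fell. Over all tested genes 12.6% rose and 9.88% fell there, so counts this small are a description of the genes named and not of a list, here and for the lists below. Both are single-stranded DNA-binding proteins that bind LDB1: SSBP2 rose from 0.786 to 4.08 FPKM (log2 2.36, 2.12 to 2.64) and SSBP4 fell from 17.7 to 7.84 FPKM (log2 -1.17, -1.35 to -0.99). None of the 4 tested in ETO2-GLIS2 cells and none of the 5 in the control line was called. SSBP2 was too low to be tested in these lines, and went from 0.533 to 1.09 FPKM in ETO2-GLIS2 cells and from 0.676 to 0.927 FPKM in the control line. SSBP4 went from 11.3 to 7.87 FPKM in ETO2-GLIS2 cells and from 14.6 to 13.0 FPKM in the control line. Its level at 48 h was thus alike in both fusion lines. The median log2 fold change of the tested partners was 0.15 in the control line, -0.22 in AML1-ETO and 0.25 in ETO2-GLIS2 cells.

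In the ETO family, CBFA2T3 was called in opposite directions. Its levels were 4.75, 6.38 and 6.00 FPKM in the control line, 5.26, 2.28 and 0.220 FPKM in AML1-ETO, and 4.10, 11.4 and 12.6 FPKM in ETO2-GLIS2 cells. The fall in AML1-ETO cells was -4.52 on the log2 scale (-5.30 to -3.94), and the rise in ETO2-GLIS2 cells was 1.62 (1.47 to 1.78), in a line whose construct carries part of this gene. Reads of the construct and of the endogenous gene cannot be told apart. RUNX1T1 was not called in AML1-ETO cells only because the control line went from 0 to 0.0240 FPKM, and 1 of 3 tested family members thus fell in AML1-ETO cells and 1 of 2 rose in ETO2-GLIS2 cells.

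The ID proteins bind E proteins and keep them from DNA. Of 4 ID genes, ID1 and ID2 were tested, and both fell at 48 h in AML1-ETO cells. ID2 had 17.7, 4.27 and 4.99 FPKM there at 0, 12 and 48 h (log2 -1.83 at 48 h, -2.08 to -1.58), against 20.1, 11.1 and 19.8 FPKM in the control line and 20.6, 15.7 and 24.7 FPKM in ETO2-GLIS2 cells. ID2 was lowest at 12 h in all 3 lines, and in AML1-ETO cells alone it was still low at 48 h. ID1 fell from 9.34 to 4.48 FPKM (log2 -1.06, -1.45 to -0.68). At 0 and 48 h it had 5.04 and 5.74 FPKM in the control line and 4.88 and 4.02 FPKM in ETO2-GLIS2 cells. The AML1-ETO clone was thus highest for ID1 before induction and stood between the other lines at 48 h. Neither was called in ETO2-GLIS2 cells or the control line at 48 h. The FPKM ratio of ID2 to TCF3 at 0 and 48 h was 0.345 and 0.173 in AML1-ETO cells, 0.364 and 0.416 in the control line and 0.589 and 0.639 in ETO2-GLIS2 cells.

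Of 8 genes for GFI1 corepressors, 7 were tested in each line. PHF21A, a subunit of the LSD1 and CoREST complex, rose from 6.34 to 13.4 FPKM in AML1-ETO cells (log2 1.07, 0.97 to 1.18), and 0 of the 7 were called in the other lines. Of 6 genes known as repressed by GFI1, 4 were tested: in AML1-ETO cells MEIS1, a homeobox partner of HOXA9, rose from 6.90 to 14.5 FPKM (log2 1.07, 0.97 to 1.17) and ID2 fell, while none was called in the other lines. The median log2 fold change of the 4 was 0.07 in the control line, 0.31 in AML1-ETO and 0.37 in ETO2-GLIS2 cells, and GFI1 itself lay at -0.03, -0.57 and -0.01.

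Of 10 related haematopoietic factors, 6 were tested in each fusion line at 48 h, of which 3 fell with AML1-ETO and 1 with ETO2-GLIS2. NFE2, a bZIP factor of megakaryocytes and red cells, fell in both. Its levels at 0, 12 and 48 h were 9.57, 2.14 and 0.0556 FPKM in AML1-ETO cells (log2 -7.19, -10.48 to -5.56, from 2 reads at 48 h) and 8.51, 2.20 and 0.802 FPKM in ETO2-GLIS2 cells (log2 -3.39, -3.99 to -2.88), against 6.37, 5.96 and 3.85 FPKM in the control line. NFE2 was already low at 12 h in both fusion lines. MYBL2, a MYB paralogue of dividing cells, fell from 111 to 24.7 FPKM in AML1-ETO cells (log2 -2.16, -2.26 to -2.06), and it lay at -0.78 in the control line and -0.41 in ETO2-GLIS2 cells. The FPKM ratio of MYBL2 to MYB at 0, 12 and 48 h was 1.24, 0.801 and 0.591 in AML1-ETO cells, 1.54, 1.63 and 1.07 in the control line and 1.04, 1.26 and 1.06 in ETO2-GLIS2 cells. SPI1, the myeloid factor PU.1, fell by 2.96 on the log2 scale in AML1-ETO cells. HHEX, the 1 tested gene of 6 on the stem and progenitor list, fell there from 26.6 to 6.12 FPKM (log2 -2.12, -2.33 to -1.92) and was not called in the other lines.

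**Figure D4:**
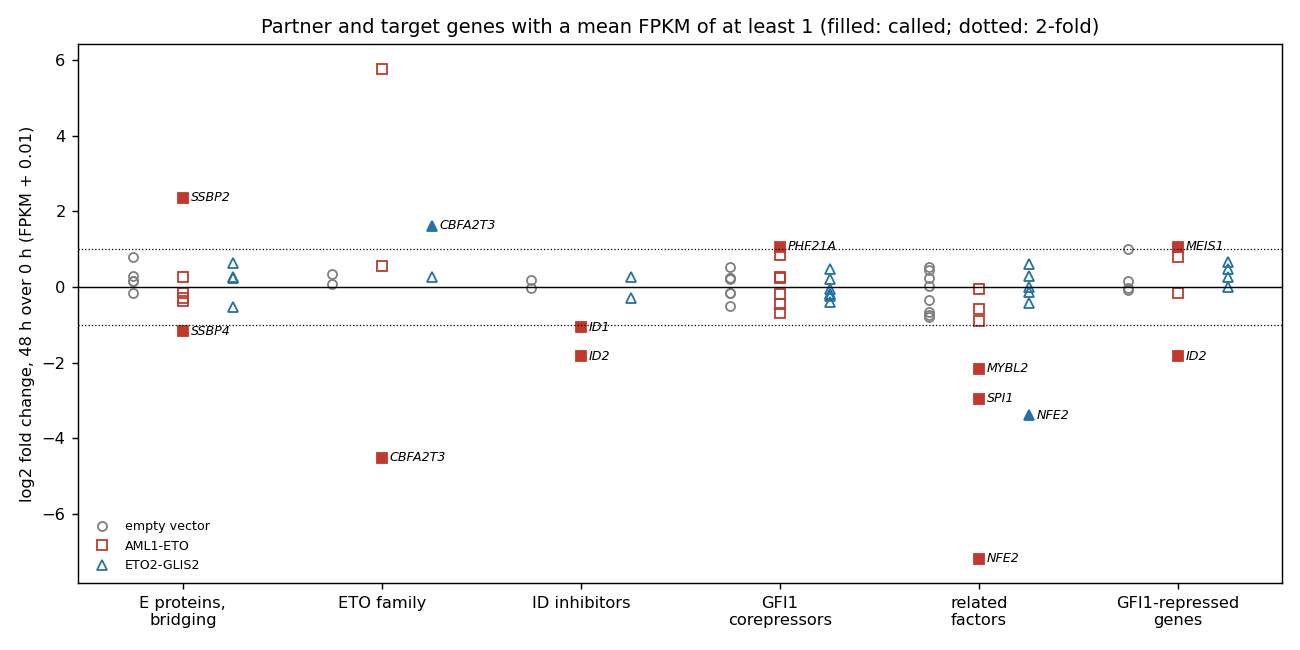
Log2 fold change at 48 h over 0 h of the same line (y axis, FPKM + 0.01) for tested genes of 6 lists (x axis) in the empty vector (grey circles), AML1-ETO (red squares) and ETO2-GLIS2 (blue triangles) lines, with filled marks and names for called genes and dotted lines at 2-fold. NFE2 lay at -7.19 and -3.39 in the AML1-ETO and ETO2-GLIS2 lines, CBFA2T3 at -4.52 and 1.62, and the open square at 5.78 is RUNX1T1.

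Genes of the red cell and platelet lineages, where the GATA1 complex is at work, were low in these cells. Of 15 erythroid genes, 14 had a mean FPKM under 1, with no value over 0.193, and EPOR, the erythropoietin receptor, was the exception: it fell from 2.80 to 1.20 FPKM in AML1-ETO cells (log2 -1.22, -1.70 to -0.77) and was not called elsewhere. Of 12 megakaryocyte genes, 11 had a mean under 1, with no value over 0.553, and GP1BA, the 1 tested, was not called in any line. Of 5 mast cell genes, 3 had a mean under 1, with no value over 0.504, and TPSB2 had at most 1.90 FPKM. TPSAB1 alone was high: it rose from 170 to 365 FPKM in the control line and fell from 192 to 76.5 FPKM in AML1-ETO cells. It had 395 and 634 FPKM at 0 and 48 h in ETO2-GLIS2 cells. TPSAB1 has a near-identical copy in TPSB2, so its reads are uncertain. The labelled monocytic cell type was met by 9 of 13 myeloid markers at a mean of at least 1, while CD14, CD68, MPO and CSF1R lay under it, and CD68 was listed at 0 in 7 and CD14 in 5 of the 9 libraries. The summed FPKM of the 13 at 0, 12 and 48 h was 1833, 1910 and 1025 in the control line, 2943, 3032 and 350 in AML1-ETO, and 2645, 2698 and 957 in ETO2-GLIS2 cells. The sum was thus lowest at 48 h in every line, and lowest of all in AML1-ETO cells. It is weighted to the most abundant genes, such as LYZ, and not every marker fell. The median log2 fold change of the tested markers at 48 h was 0.23 in the control line, -3.65 in AML1-ETO and -0.07 in ETO2-GLIS2 cells. LYZ, AZU1 and CTSG fell in AML1-ETO cells, and LYZ and AZU1 fell and CD33 rose in ETO2-GLIS2 cells. For LYZ (log2 -0.45), AZU1 (-0.75) and CD33 (0.78) the control line moved the same way as ETO2-GLIS2 cells, short of 2-fold. AZU1 went from 244 to 106 FPKM and CD33 from 6.16 to 12.4 FPKM in ETO2-GLIS2 cells. Control levels went from 172 to 102 FPKM and from 6.27 to 10.7 FPKM. ITGAM rose and ELANE and PRTN3 fell in the control line. ELANE and PRTN3 were past 2-fold downward in both fusion lines too, with 520 and 66.7 FPKM at 0 and 48 h for ELANE and 902 and 20.7 FPKM for PRTN3 in AML1-ETO cells, and ITGAM was past it upward in ETO2-GLIS2 cells, with 2.23 and 11.5 FPKM. These were not called because the control line passed 2-fold the same way. Among the lymphocyte markers, NKG7 fell in AML1-ETO cells. Fewer cells of a kind and less RNA per cell cannot be told apart in these bulk libraries. The part of the myeloid marker changes in the falls of LYL1 and MYB was not tested.

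The genes most like a member in pattern were taken for the 3 expressed members with the widest range, by Pearson's correlation of log2 FPKM + 0.01 over the 9 libraries, among 11814 genes. The 9 points share clones and times, so the values are a description. For LYL1 they were AL451069.3 (r = 0.975), EFNB1 (0.963), an ephrin ligand, and CITED4 (0.943), a coactivator that ran from 6.42 FPKM in AML1-ETO cells at 48 h to 48.0 FPKM in the control line at 12 h. For MYB they were RAC3 (0.986), a small GTPase, MTURN (0.978) and ANKS6 (0.975), all with their lowest value in AML1-ETO cells at 48 h. For LMO2 they were the pseudogene BAK1P1 (0.972), ATP5MC2 (0.969), a subunit of the ATP synthase, and RUNX1T1 (0.963), whose reads in AML1-ETO cells come with the construct. Highest LMO2 and RUNX1T1 levels were both in AML1-ETO cells at 48 h, and LMO2 was above the other lines there at 0 h too, by 0.52 on the log2 scale against the control line (0.44 to 0.60).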

How the data were processed

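RNA-seq of 9 libraries from U937 lines was used. Total RNA was taken up with TRIzol and libraries were made with the TruSeq RNA kit and sequenced on an Illumina NovaSeq. The authors aligned reads to hg38 with HISAT2 (2.0.5), handled the alignments with SAMtools (1.7), counted them on genes with HTSeq (0.9.1) and deposited FPKM for each gene. DESeq2 (1.22.2) is also listed in the submitters' processing notes, with no role given. HTSeq ran with its default settings. The annotation and exon lengths are not given in the sources used here, and FPKM moves with the most abundant genes of a library.

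From the FPKM, whole reads and library totals were recovered in Python (3.11.15) using scipy (1.17.1), pandas (2.3.3) and numpy (2.4.6). Figures were made in matplotlib (3.10.9). The recovery and the calls were tested on simulated data. Reads served only for exact Clopper-Pearson 95% intervals and for a floor of 3 reads. Fold changes are log2 of FPKM + 0.01, and a call needs more than 2-fold, a mean FPKM of at least 1 and, in the fusion lines, no 2-fold change the same way in the control line. Lines and times come from the labels. With 1 library per condition no test was run. The 10 members, the gene lists and the rules were chosen with earlier results of these data known. Named list genes are up to 4 called genes per list with the highest mean FPKM. TCF12, GP1BA, ITGAM, ELANE, PRTN3 and TPSB2, and the marker genes named as low, lie outside that rule and were named after their values were seen. A gene of the lists is not reported here. Alternatives covered the pseudocount, filter, scaling, fold, empty vector line and reference library. Positions and promoter windows are RefSeq on GRCh38.p14. Overlap of exons comes from an annotation on GRCh37, matched by identifier, and no position was taken from it: other-strand exons cover 1.59% of GATA2, 5.72% of GFI1B and 1.87% of MYB, and none of the 5 remaining expressed members.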

Additional observations from a re-analysis of the deposited data

Results flagged for a closer look

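For LMO2 and TCF3 the log2 fold change as deposited differed in sign between AML1-ETO and ETO2-GLIS2 cells at both 12 and 48 h. The TCF3 value of ETO2-GLIS2 cells at 12 h was 0.06 (-0.01 to 0.12), an interval that includes 0. After rescaling it was -0.06, and -0.42 in AML1-ETO cells, so the signs were then the same. Taking the ETO2-GLIS2 value from the AML1-ETO value at 48 h gave 0.69 for LMO2 and -0.98 for TCF3. With 1 library per condition neither difference was tested. For TCF3 the ETO2-GLIS2 value was 0.15 as deposited and -0.02 after rescaling and the AML1-ETO value was -0.84 and -1.01, so after rescaling both were below 0. With the control line, at -0.21, subtracted from the deposited values they were 0.36 and -0.63, of opposite sign, and with the control line at 48 h as the reference they were -0.30 and -0.73. For LMO2 the rescaled values at 48 h were 0.29 and -0.40. The control line, at 0.45, lay with AML1-ETO cells for LMO2. For LDB1 the signs as deposited differed at 48 h, at -0.22 in AML1-ETO and 0.58 in ETO2-GLIS2 cells, and not at 12 h. After rescaling the LDB1 signs differed at both times, with -0.14 and 0.03 at 12 h and -0.39 and 0.42 at 48 h.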

How the results depend on the processing

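No paired analysis was possible because each condition had 1 library, and no library could be left out for the same reason. At 48 h the AML1-ETO count of 2 members (LYL1, MYB) became 4 with no filter on low values (GATA2 down and GFI1B up added), 1 (LYL1) with the control line subtracted or as the reference at the same time, and 0 at a fold of 3. With the libraries rescaled TCF3 joined at -1.01. The ETO2-GLIS2 count of 0 became 1 (LYL1) with the control line subtracted or as the reference, and at a fold of 1.5. LYL1 there came to the 2-fold threshold after rescaling without passing it. The empty vector count of 0 became 1 (GFI1B) with no filter. At 12 h, where alternatives were added after the values were seen, the count of 0 became 2 (GATA1, GFI1B) in the control line and 1 (TAL1) in AML1-ETO cells with no filter, and 1 (LYL1) in ETO2-GLIS2 cells at a fold of 1.5 or with the control line at 12 h as the reference. Over all genes, no filter took the AML1-ETO count at 48 h from 2703 to 9306, and a fold of 3 to 1456. Rescaling took the share of calls that were higher from 72.8% to 56.8% in the control line, from 56.0% to 46.3% in AML1-ETO cells and from 82.4% to 71.6% in ETO2-GLIS2 cells. Of 130 single values under an alternative, 77 were equal to the reported value or inside its counting interval, and the other 53 lay outside it or belonged to GATA1 or GFI1B with 0 reads in a library, where the interval has no bound on at least 1 side. Depth limits GATA1, TAL1 and GFI1B, which had 13 reads or fewer over 9 libraries, and widens the intervals of GATA2.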
